A study of Mus musculus with 653 samples.

Results

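Hepatoblasts with *Afp* transcripts were a minority of the cells sorted from mouse fetal liver and came almost entirely from the E10.5 Lgr5-GFP+ sort. A cell was counted as an *Afp*-positive hepatoblast if it had more than 10 reads of *Afp* and more than 10 reads of at least 3 of the 5 genes *Alb*, *Apoa1*, *Apoa2*, *Fgb* and *Hnf4a*. This rule found 57 hepatoblasts and left 596 other cells, so that hepatoblasts were 8.73% of all cells (95% interval 6.68 to 11.2). The cells were chosen by the reads of these 6 genes, whose levels are therefore given as a description.

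The cells came from livers of embryos at E10.5 and E13.5, sired by males that carry Lgr5-EGFP-IRES-creERT2 on a C57BL/6 background and borne by MF1 females. The allele is a knock-in, so that GFP is driven by the *Lgr5* locus itself, and every group shared this cross and the Liv2+ CD31- CD45- gate, in which CD31 and CD45 serve to remove endothelial and blood cells. There were 4 groups, a bulk sort and an Lgr5-GFP+ sort at each stage, spread over 5 library pools. In the order of pools 1 to 5, the E10.5 Lgr5-GFP+ sort held 45, 47, 40, 41 and 38 cells and the E10.5 bulk sort 42, 41, 41, 42 and 37. The E13.5 Lgr5-GFP+ sort held 13, 27, 19, 14 and 7 cells and the E13.5 bulk sort 34, 34, 33, 34 and 24. Animals, litters and sorts are not told apart by the labels, so a group was taken as 1 sample and no p-value was computed. The pools served as technical batches. The pools were not matched to sorts, so the pools do not count as independent repeats of the experiment.

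In the developing liver, hepatocytes and the lining cells of the bile ducts both descend from hepatoblasts. These arise from foregut endoderm under the control of a small set of transcription factors, among them Foxa, Hnf4a, Hhex and Prox1, and begin early to make plasma proteins such as alpha-fetoprotein and albumin. In the fetal liver they lie among mesenchyme, endothelium and blood-forming cells, for which they also make growth factors.

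Each cell had been amplified and sequenced on its own by the Smart-seq2 protocol, without molecular identifiers. Reads on genes numbered 567698 to 1956394 per hepatoblast (median 1246010), against 463347 to 2279700 in the other 596 cells (median 1184221). Levels are given in RPM, that is, the summed reads of a gene in the cells named per 1000000 reads on all genes. Intervals are exact 95% intervals, while beside a share of 0 the limit given is the share that 3 cells would make. Both cover counting error only, since reads copied by amplification do not stand for separate molecules, and neither do cells stand for replicates. The libraries of pools 1 and 2 stood apart from the others by the number of genes read in each cell. At 100000 reads drawn from each cell, hepatoblasts of pool 2 had a median of 2483 genes with a read and those of pools 3 to 5 had 5170. Other cells had medians of 2001 and 1741 genes in pools 1 and 2 and between 4281 and 4862 in pools 3, 4 and 5. In each of pools 2 to 5 the median was higher in hepatoblasts than in all other cells. Other cells of the E10.5 Lgr5-GFP+ sort alone had medians of 2028 genes in pool 2 and 5266 in pools 3 to 5. The latter lay above the median of hepatoblasts. No doublet caller was run on these singly sorted cells. Of 365 index pairs, 230 were used in more than 1 pool and 0 were used more than once within a pool.

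The question of where these cells lay among the stages and sorts was answered by their shares. In the E10.5 Lgr5-GFP+ sort, 53 cells (25.1%, 19.4 to 31.5) were *Afp*-positive hepatoblasts. In the E10.5 bulk sort they were 3 cells (1.48%, 0.306 to 4.26), an interval that does not overlap that of the Lgr5-GFP+ sort. At E13.5 the bulk sort held 1 such cell (0.629%, 0.0159 to 3.45) and the Lgr5-GFP+ sort held 0 of 80 cells, which allows a share of up to 3.75%. The depth therefore cannot show whether the 2 sorts at E13.5 differed.

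The share in the E10.5 Lgr5-GFP+ sort varied between library pools far beyond counting error. It was 2.22% in pool 1 (1 of 45 cells), 65.96% in pool 2 (31 of 47, 50.7 to 79.1), 17.5% in pool 3 (7 of 40, 7.34 to 32.8), 14.6% in pool 4 (6 of 41, 5.57 to 29.2) and 21.1% in pool 5 (8 of 38, 9.55 to 37.3). Pools 3, 4 and 5 did not differ beyond their intervals, while pool 2 lay above and the interval of pool 1, 0.0563 to 11.8%, reached into those of pools 3, 4 and 5 but not into that of pool 2. Without pool 2 the share was 13.4% (22 cells, 8.60 to 19.6). In the E10.5 bulk sort, pools 2, 3 and 5 held 1 hepatoblast each and pools 1 and 4 held 0, which allows up to 7.14% of 42 cells in each. In each pool from 2 to 5 the share was higher in the Lgr5-GFP+ than in the bulk sort of E10.5. The intervals of these sorts overlapped in pools 3, 4 and 5. They did not in pool 2, where that of the bulk sort was 0.0617 to 12.9%.

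**Figure D1:**
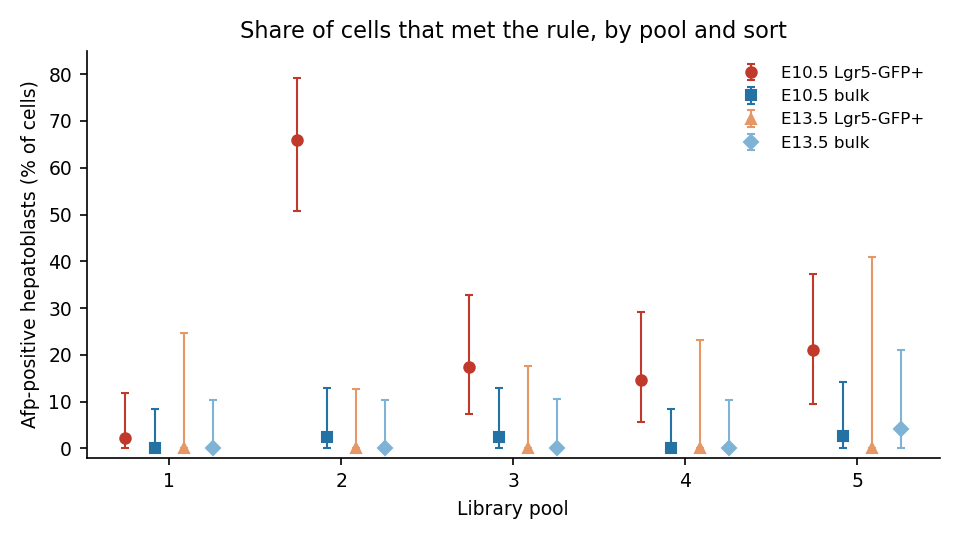
Share of *Afp*-positive hepatoblasts in each library pool (x axis, pools 1 to 5), in percent of the cells of each stage and sort (y axis). Points are shares, bars are exact 95% intervals for counting error. The E10.5 Lgr5-GFP+ sort reaches 65.96% in pool 2 and lies between 2.22 and 21.1% in the other pools, while the other 3 groups hold at most 1 hepatoblast in a pool.

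Cells on both sides of the rule's limits were counted. Of the 57 hepatoblasts, 30 passed with all 5 further genes, 19 with 4 and 8 with 3, and the lowest *Afp* level among them was 168.2 RPM. Of the other cells, 419 had no *Afp* read and 9 had more than 10. Among these 9, 4 passed 2 of the 5 further genes, with 601, 1093, 1286 and 1546 *Afp* reads, 1 passed 1 gene, with 637 reads, and 4 passed none, with 22, 75, 80 and 224. The *Afp* reads of these cells and of hepatoblasts overlapped. A further 2 E10.5 Lgr5-GFP+ cells of pool 2 passed 3 of the 5 genes with 2 and 4 *Afp* reads, and so missed the rule by *Afp* alone.

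The label was checked against markers of the other cells that the gate could hold. Of the 57 cells, 44 had more than 10 reads of no mesenchyme and no erythroid marker, and 5 had more than 10 reads of 3 or more markers of 1 of these kinds. Of these 5, 4 were E10.5 Lgr5-GFP+ cells with 3 or 4 of 12 mesenchyme markers (3 of pool 2, 1 of pool 4), and they also had more than 10 reads of 3 to 11 hepatic transcription factors. The last was the single E13.5 bulk cell, of pool 5. It had more than 10 reads of all 9 erythroid markers counted here, which leave out globins, and 7948 reads of the globin gene *Hba-a1*, and 0 of 22 hepatic transcription factors above 10 reads, so that in this cell the data go against the name. Counts of genes without these 5 doubtful cells are given beside the main ones.

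The 6 genes of the rule encode secreted proteins of the liver and 1 transcription factor. Per cell, *Afp*, the fetal counterpart of albumin, ran from 168.2 to 10405 RPM with a median of 1438. *Alb*, which encodes albumin, ran from 0.654 to 11486 RPM with a median of 1181. *Apoa2*, which encodes an apolipoprotein of high-density lipoprotein, ran from 1109 to 14716 RPM with a median of 7654. The spread was thus narrow for *Apoa2*, with a coefficient of variation of 0.383, and wide for *Alb*, with 1.15. *Apoa1*, the main apolipoprotein of high-density lipoprotein, ran from 0 to 4947 RPM (median 1513) and *Fgb*, the fibrinogen beta chain, from 0.845 to 8170 (median 3189). *Hnf4a*, a nuclear receptor that drives many liver genes, ran from 0 to 994 RPM (median 128.3), and 34 of 57 cells had more than 10 of its reads.

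**Figure D2:**
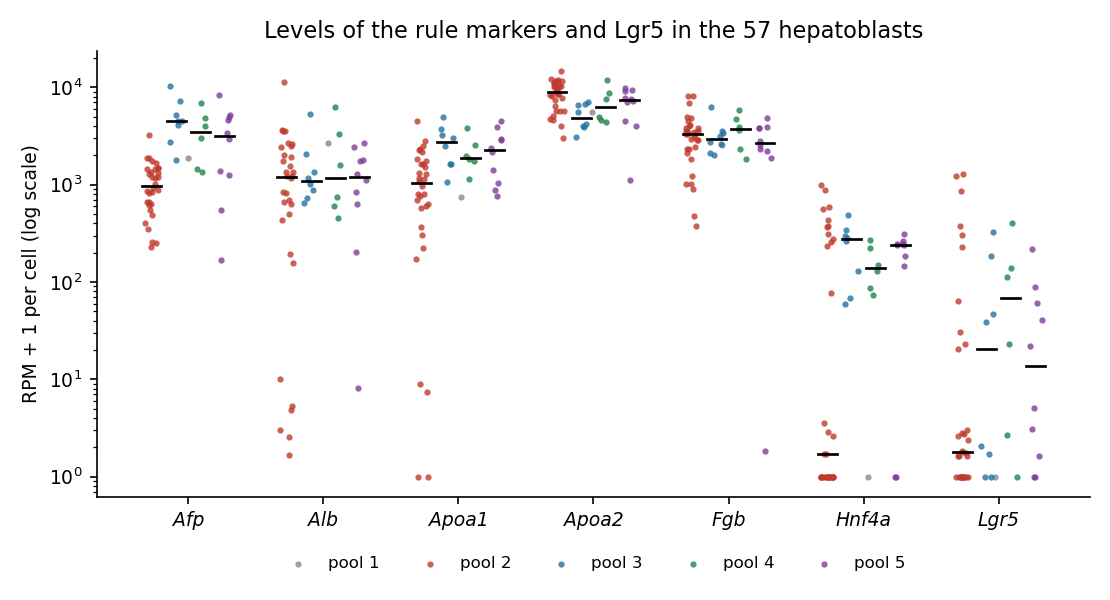
Level of the 6 rule genes in each of the 57 hepatoblasts, as RPM + 1 on a log scale (y axis), coloured by library pool. *Apoa2* lies between 1109 and 14716 RPM in every cell, *Alb* falls to 0.654 RPM in the lowest cell, and 18 cells have no *Hnf4a* read.

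In the summed reads, *Afp* (chr5:90490737-90508907) was at 2382 RPM (2370 to 2393) in hepatoblasts and 8.24 RPM in the other cells, and *Alb* (chr5:90460897-90476602), its neighbour on the same strand, at 1608 and 11.02 RPM. Per kilobase of exon the 2 genes were at 707.2 and 687 RPM, a ratio of *Afp* to *Alb* of 1.03. That ratio differed between pools, at 0.472 in pool 2, 2.46 in pool 3, 1.298 in pool 4 and 1.89 in pool 5. *Afp* was above *Alb* per kilobase in 13 of 32, 6 of 8, 4 of 6 and 7 of 10 cells of these pools. The difference lay in *Afp*, whose median was 962 RPM per cell in pool 2 against 4483, 3505 and 3187 in pools 3, 4 and 5, whereas medians of *Alb* were 1198, 1092, 1166 and 1202. *Apoa2* went the opposite way, at a median of 9017 RPM in pool 2 and of 4845, 6298 and 7449 in pools 3, 4 and 5. The number of genes read per cell moved with *Afp* over all pools, and its part in the difference was not tested.

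The stretches of 250 bases before the starts of the rule and fibrinogen genes were searched for short motifs, and 5 of them are given. The level of the transcripts did not select these 5. *Apoa2*, at 7660 RPM in hepatoblasts, and *Fgg*, at 596.5 RPM, were left out, while *Fga*, at 431.6 RPM, was kept. Each of the 5 holds a match to the letters of HNF1 or FOXA, as does *Apoa2*, while *Fgg* and *Hnf4a* hold none. The stretches were taken from RefSeq on GRCm38.p6. They run 5′ to 3′ on the strand of the gene and end just before its start in RefSeq. That start lay 23, 27, 50 and 77 bases from the one in GENCODE M21, which gave the gene coordinates above, for *Afp*, *Alb*, *Apoa1* and *Fga*, and at the same base for *Fgb*. Distances are counted from the RefSeq start. Capitals mark exact matches, on either strand, to GTTAAT (part of the site of HNF1), CAAAGTCCA or AGGTCAAAG (HNF4), TGTTTAC or TGTTTGC (FOXA), TTGCAAT or TTGCGCAA (C/EBP), CCAAT and TATAAA. No matches overlapped in these stretches.
*Afp*, chr5:90490464-90490713, plus strand: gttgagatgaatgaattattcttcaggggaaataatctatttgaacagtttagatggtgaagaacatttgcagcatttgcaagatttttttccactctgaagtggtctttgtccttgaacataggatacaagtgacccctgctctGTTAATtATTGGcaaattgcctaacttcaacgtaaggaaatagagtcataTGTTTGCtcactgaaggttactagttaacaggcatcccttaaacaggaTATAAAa
*Alb*, chr5:90460620-90460869, plus strand: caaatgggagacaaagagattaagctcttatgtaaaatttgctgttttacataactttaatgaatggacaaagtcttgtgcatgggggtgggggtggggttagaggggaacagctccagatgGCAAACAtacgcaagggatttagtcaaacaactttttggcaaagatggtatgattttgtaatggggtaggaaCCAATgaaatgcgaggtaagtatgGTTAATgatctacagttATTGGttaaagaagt
*Apoa1*, chr9:46228380-46228629, plus strand: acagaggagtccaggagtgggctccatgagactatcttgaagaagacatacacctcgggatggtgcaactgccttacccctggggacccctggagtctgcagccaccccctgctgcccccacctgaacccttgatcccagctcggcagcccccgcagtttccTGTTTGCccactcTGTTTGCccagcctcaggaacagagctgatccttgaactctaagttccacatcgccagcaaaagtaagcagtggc
*Fga*, chr3:83025903-83026152, plus strand: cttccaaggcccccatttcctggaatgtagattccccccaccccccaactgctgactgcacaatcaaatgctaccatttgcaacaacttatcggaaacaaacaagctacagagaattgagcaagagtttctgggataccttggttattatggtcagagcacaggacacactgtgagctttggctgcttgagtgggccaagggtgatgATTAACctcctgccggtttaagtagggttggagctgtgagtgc
*Fgb*, chr3:83049864-83050113, minus strand: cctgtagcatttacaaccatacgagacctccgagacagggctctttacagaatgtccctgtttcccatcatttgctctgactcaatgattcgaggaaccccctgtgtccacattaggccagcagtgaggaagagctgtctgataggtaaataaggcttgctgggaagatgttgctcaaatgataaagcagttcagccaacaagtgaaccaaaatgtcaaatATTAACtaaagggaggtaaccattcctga

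GTTAAT ended 100 bases before the start of *Afp* and lay 32 to 27 bases before that of *Alb*, and in reverse 43 to 38 before *Fga* and 29 to 24 before *Fgb*. It is found in 6.43% of all 32851 stretches of this length in the RefSeq table. TGTTTGC, found in 4.30% of them, lay 55 to 49 bases before *Afp*, in reverse further out before *Alb*, and at 88 to 82 and 75 to 69 before *Apoa1*. *Apoa2* held TGTTTAC (3.17% of all stretches) and *Hnf4a* held only CCAAT (33.9%), while none of these letters stood before *Fgg*. TATAAA (12.4%) ended 2 bases before the RefSeq start of *Afp*. The other letters, CAAAGTCCA (0.384%), AGGTCAAAG (0.381%), TTGCAAT (1.96%) and TTGCGCAA (0.164%), were in none of the 8 stretches searched. A match is a description of the sequence and not a measured binding site. A share of motifs over all genes higher in hepatoblasts is not given, because only 73.9% of them had a start in the table.

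Hepatoblasts were compared with all other cells over 14929 genes that had at least 3 reads in at least 10 cells. A gene was called higher or lower if its summed RPM differed by at least 4 times over all cells and also within each of pools 2 to 5, the pools with at least 5 hepatoblasts. No test is attached to a call. In hepatoblasts, 1.41% of the genes tested were higher, and 1090 genes (7.3%) were lower. The median log2 ratio was -0.44 over all genes tested, and -0.10 over the 7581 of them with at least 10 RPM in both sets of cells. Of the genes called higher, 95.7% were protein coding and 91 had at least 3 reads in at least 50% of hepatoblasts. Together the genes called higher took 7.84% of the reads of hepatoblasts and 0.319% of those of other cells, and between 7.64 and 8.38% in hepatoblasts of pools 2 to 5. All 6 rule genes are among them, at 16715 RPM in sum in hepatoblasts. These shares describe genes that the rule and the call picked, and they test nothing.

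The other cells included 260 with at least 3 of 12 mesenchyme markers, called mesenchyme-like here. Erythroid-like cells, with at least 3 of 9 erythroid markers, numbered 31, 26, 43, 50 and 31 in pools 1 to 5. Within the E10.5 Lgr5-GFP+ sort, which holds stage and sort constant, 1.16% of genes were higher and 499 genes (3.34%) were lower in hepatoblasts. Of these, 72.8 and 74.6% were also called against all other cells, which is 59.7% of the genes higher and 34.1% of the genes lower in that comparison. In pool 2 the sort held only 16 other cells, some of which passed 2 or 3 of the 5 further genes of the rule. Even *Apoa1*, a rule gene, was not called within the sort, with a log2 ratio of 1.57 in its lowest pool. The part of these cells in the calls was not tested. Within this sort the genes called higher included 6 plasma carriers, 6 lipid transport genes, 7 coagulation genes and 6 hepatic transcription factors of the lists described next. Among genes named below as higher, *Ttr*, *Apoe*, *Fga*, *Serpina1a* and *Steap2* were not called within the sort. Without the 5 doubtful cells, 1.42% of genes were higher and 8.86% lower against all other cells, and these held 95.7% of the genes called higher and 96.7% of those called lower with all 57.

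**Figure D3:**
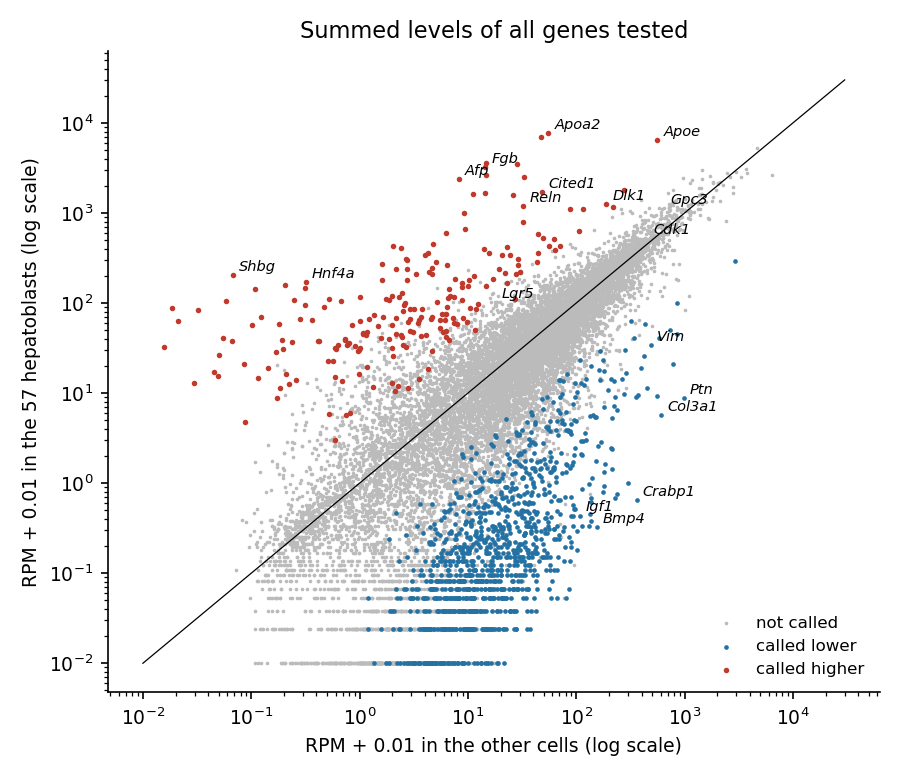
Level of each tested gene in the 596 other cells (x axis) and the 57 hepatoblasts (y axis), as RPM + 0.01 on log scales, with the genes called higher (1.41%) and lower (7.3%) in colour. *Apoa2* and *Fgb* lie far above the diagonal of equal levels, and *Col3a1* and *Ptn* far below it.

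Genes of plasma carrier proteins formed the most abundant list. Of 18 such genes with reads, 12 passed the filter and were tested. Of these, 9 were higher and 0 lower, with a median log2 ratio of 6.60 against -0.44 over all genes, and they summed to 18306 RPM in hepatoblasts and 177.1 in other cells. *Rbp4*, which carries retinol, ran from 355 to 17094 RPM per hepatoblast with a median of 7049. *Ambp*, the precursor of alpha-1-microglobulin and bikunin, ran from 41.4 to 7591 RPM with a median of 3410. Every hepatoblast had more than 10 reads of both genes, against 11.9 and 2.52% of other cells. *Ttr*, which carries thyroid hormone, was at 2501 RPM in hepatoblasts and 32.97 in other cells, and *Serpina6*, which binds corticosteroids, at 2661 and 14.7. *Shbg*, which binds sex steroids, had the widest log2 ratio of the list, 11.79 (10.11 to 12.61 within pools), from 203.4 and 0.0574 RPM, and 29 of 57 hepatoblasts had more than 10 reads of it. *Hpx*, which binds haem, had a log2 ratio of 8.93. *Gc* and *Itih3* were not called, with log2 ratios of 3.74 and 2.66. The list summed to 17969, 19264, 16937 and 19425 RPM in hepatoblasts of pools 2, 3, 4 and 5, a narrow range next to that of *Afp*.

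Apolipoprotein and lipid transport genes followed. Of 11 with reads, 9 were tested, 7 were higher and 1, *Pltp*, was lower, and they summed to 10836 RPM in hepatoblasts and 615 in other cells. *Apom* ran from 84.6 to 7225 RPM per hepatoblast with a median of 3281, and was at 14.7 RPM in the summed other cells. *Apoe* was at 6486 RPM in hepatoblasts, but 47.5% of other cells also had more than 10 of its reads, and its log2 ratio was 3.53. *Apob*, the structural protein of the low-density lipoprotein, had a log2 ratio of 11.07 at 105.1 RPM, and *Fabp1*, which binds fatty acids, of 8.41 at 57.97 RPM. Only 23 and 16 of 57 hepatoblasts had more than 10 reads of *Apob* and *Fabp1*, so these 2 genes were read in fewer cells than *Apom* and *Apoe*. *Apoc3* (28.4 and 0.0196 RPM) had more than 10 reads in 7 hepatoblasts and did not pass the filter, so it was not tested.

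Of 20 coagulation genes outside the rule, 15 were tested, of which 9 were higher and 0 lower, with a median log2 ratio of 6.37, and summed to 3485 RPM in hepatoblasts and 86.97 in other cells. *Fgg* and *Fga*, the other fibrinogen chains, were at 597 and 432 RPM in hepatoblasts and 6.29 and 2.04 in other cells. Per kilobase of exon, *Fgb* stood at 846 RPM, *Fgg* at 285 and *Fga* at 143.4. *Serpinf2*, which inhibits plasmin, was at 997 RPM and had more than 10 reads in 47 of 57 hepatoblasts. *Plg*, *F12* and *Proc*, which encode plasminogen, factor XII and protein C, had log2 ratios of 7.32, 7.62 and 9.83. *F2*, which encodes prothrombin, had a log2 ratio of 4.83 but only 1.25 in its lowest pool and was not called, and *F10* had 2.66 and was not called. The list summed to 2614 RPM in hepatoblasts of pool 2 and to 5763, 5224 and 3624 in pools 3, 4 and 5.

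Complement genes were less abundant. Of 16, 8 were tested and 3 were higher, with a sum of 407 RPM against 34.3. *C3*, the central complement component, made up 270 RPM of it, and *C1s1* and *Masp2* were the others called. Of 9 serpin genes with reads, 7 were tested and 5 were higher. They were *Serpina10*, at 69.3 RPM, and 4 copies of the alpha-1-antitrypsin gene, with *Serpina1b* at 345 RPM and *Serpina1a* at 106.9. The copies are near-identical and uniquely aligned reads may be lost or split among them, so their single values are uncertain. *Serpinf1* was at 646 RPM in hepatoblasts and 145.7 in other cells and was not called, with a log2 ratio of 2.15 and 1.94 in its lowest pool.

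**Figure D4:**
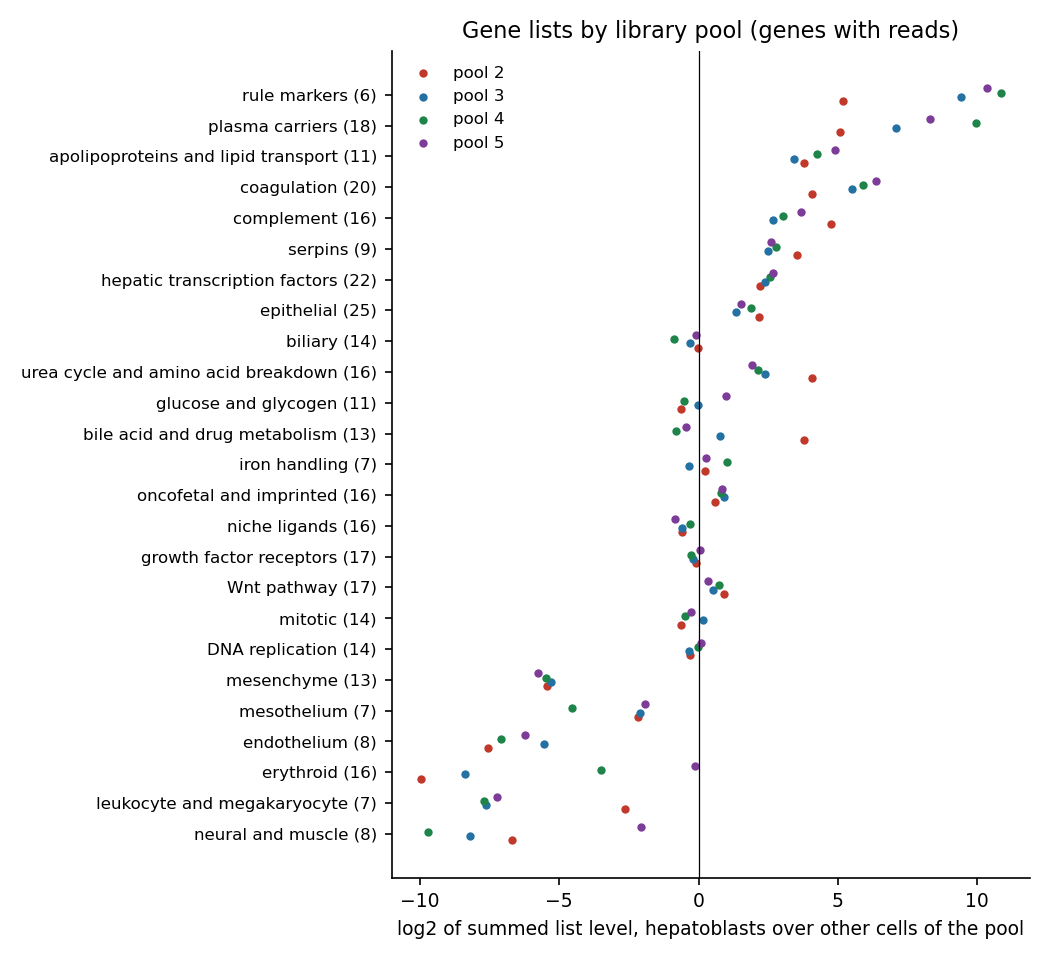
Ratio of the summed RPM of each gene list in hepatoblasts to that in other cells of the same library pool, as log2 (x axis), for pools 2 to 5, with lists by name and number of genes (y axis). Lists of secreted liver proteins lie to the right in all 4 pools, mitotic and replication genes near 0, and mesenchyme and endothelium markers to the left. The erythroid list lies near 0 in pool 5, the pool of the doubtful E13.5 bulk cell.

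Hepatic transcription factors were higher in hepatoblasts in part and were patchy from cell to cell. Of 22 with reads, 18 were tested, 7 were higher and 1 was lower, with a median log2 ratio of 3.17 and sums of 1576 and 290 RPM. *Foxa3* had the widest ratio, 9.67 (8.10 to 12.71 within pools), from 157.7 and 0.193 RPM, with 35 of 57 hepatoblasts above 10 reads and a range of 0 to 1041 RPM per cell (median 95.6). *Foxa2*, which like *Foxa3* opens liver enhancers, had a log2 ratio of 5.73, and *Onecut2* of 5.82 at 283 RPM. *Hhex*, needed for the liver bud to grow, was at 208.8 RPM in hepatoblasts and 27.97 in other cells, and *Cebpa*, a regulator of hepatocyte metabolism, at 91.2 and 6.397. *Foxa1* and *Creb3l3* were also called. Within the E10.5 Lgr5-GFP+ sort, *Cebpa*, *Foxa1* and *Foxa2* were not called, with log2 ratios of 0.07, 0.67 and 1.98 in their lowest pools. *Foxa3*, *Hhex*, *Onecut2* and *Creb3l3* were called there. *Prox1*, which marks early hepatoblasts, was at 234 and 9.91 RPM and *Nr5a2* at 159.4 and 14.7 RPM. Neither was called, because their log2 ratios fell to 1.96 and 1.24 in the lowest pool. *Gata4*, which early liver endoderm and liver mesenchyme share, was lower, at 1.31 RPM against 58.5.

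The number of these factors read per cell differed between pools more than their summed level did. Leaving out the doubtful cells, a hepatoblast of pool 2 had a median of 4 of 22 factors with more than 10 reads (0 to 7, 29 cells), and one of pools 3 to 5 had 10 (6 to 15, 22 cells). The summed level was 1437 RPM in pool 2 and 1899 RPM in pools 3 to 5. *Hnf4a* showed the same, with 12 of 32 cells above 10 reads in pool 2 and 22 of 24 in pools 3 to 5, at 161.5 RPM in sum in pool 2 and at 250.7, 145.6 and 167.1 RPM in pools 3, 4 and 5. *Foxa3* did so too, with 13 of 32 and 21 of 24 cells at 145.6 and 177.9 RPM. The same step was present in other cells: mesenchyme-like cells had a median of 2 of 14 mitotic genes above 10 reads in pool 2 and 11 in pools 3 to 5, and erythroid-like cells 5 and 11. Shares of cells with reads of a gene are thus comparable only within a pool, and those given over all pools also carry the make-up of the pools.

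**Figure D5:**
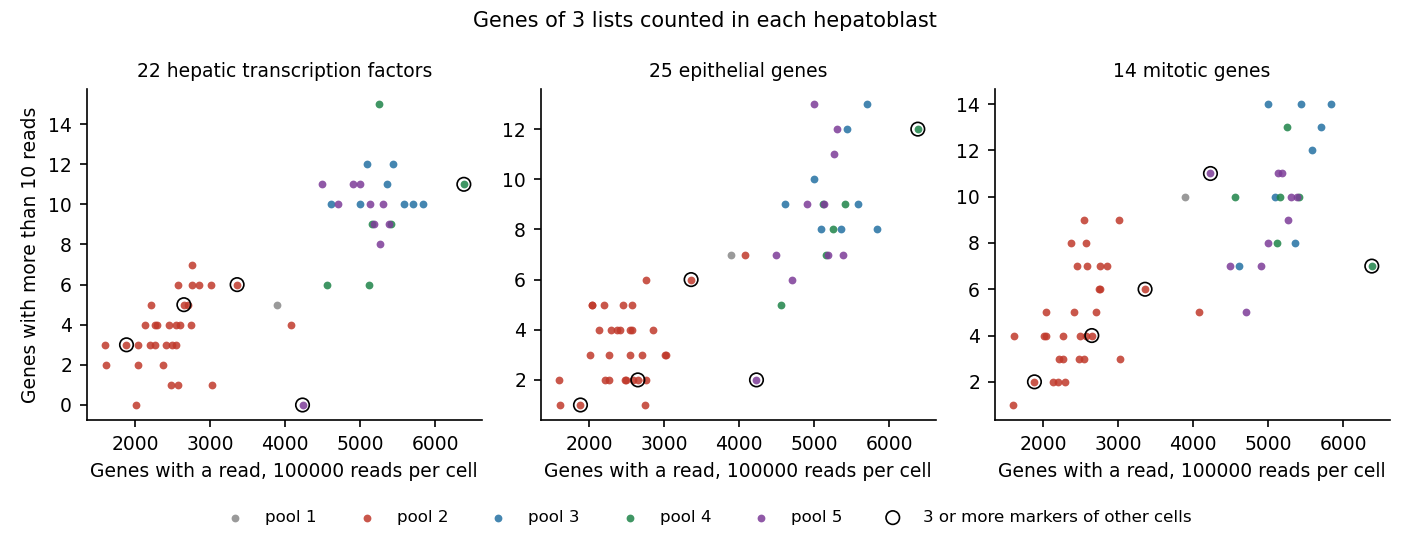
Number of genes of 3 lists with more than 10 reads in each hepatoblast (y axis) against the number of genes with a read at 100000 reads per cell (x axis), coloured by library pool, with the 5 doubtful cells circled. Hepatoblasts of pool 2 lie at the lower left of each panel and those of pools 3 to 5 at the upper right, with medians of 4 and 10 transcription factors.

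Epithelial genes gave a mixed picture. Of 25 with reads, 24 were tested, 4 were higher and 0 lower, and the median log2 ratio was 0.43. *Krt18*, a keratin of simple epithelia, was at 622 RPM in hepatoblasts and 105.2 in other cells, and its partner *Krt8* at 170 and 41.98, with a log2 ratio of 1.89 in its lowest pool, so that *Krt8* was not called. *Cgn*, *Ocln* and *Rbm47*, the first 2 of which encode tight junction proteins, were higher, with log2 ratios of 3.90, 3.79 and 3.59. Within the E10.5 Lgr5-GFP+ sort, *Ocln* and *Rbm47* were called, and *Krt18* and *Cgn* were not. *Epcam* was at 33.1 RPM in hepatoblasts and 30.02 in other cells, but its log2 ratio ran from -1.55 to 4.11 between pools and was -1.36 within the E10.5 Lgr5-GFP+ sort. *Cdh1* was at 7.09 and 7.15 RPM, with log2 ratios from -4.56 to 2.71 between pools and of -1.50 within that sort. Of 14 biliary genes, 11 were tested, 0 were higher and 2, *Jag1* and *Aqp1*, were lower, and the list summed to 451 RPM in hepatoblasts and 526 in other cells. *Sox9*, an early factor of bile duct cells, was at 34.1 and 81.6 RPM. *Hes1*, *Anxa4*, *Prom1* and *Pkhd1* went the other way, with log2 ratios of 0.33, 2.36, 1.53 and 1.42. The median log2 ratio of the biliary genes tested was -0.73. Within the E10.5 Lgr5-GFP+ sort, *Anxa4* was called higher.

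Lists of mature hepatocyte metabolism were at far lower levels in hepatoblasts than plasma carriers. Of 16 genes of the urea cycle and amino acid breakdown, 11 were tested and 3 were higher, among them *Cth* and *Otc*, at 154.9 and 43.8 RPM. Of 11 genes of glucose and glycogen metabolism, 4 were tested, and *Gys2*, the liver glycogen synthase, was the 1 called, at 38.2 RPM. Of 13 genes of bile acid and drug metabolism, 5 were tested and 0 were called, and the list summed to 58.1 RPM in hepatoblasts and 26.6 in other cells. Of 7 genes of iron handling, 6 were tested, *Tmprss6* and *Steap2* were higher, and *Hamp*, which encodes hepcidin, was listed at 0 in every cell.

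Fetal growth genes were shared mainly with mesenchyme-like cells. They summed to 10623 RPM in hepatoblasts, 9550 in mesenchyme-like cells and 730.8 in erythroid-like cells. Of 16 oncofetal and imprinted genes, *Dlk1* was the 1 called higher, with 71.8 to 3942 RPM per hepatoblast (median 1065) and 187.7 RPM in the summed other cells. Its median was 1513 RPM in hepatoblasts of pool 2 and 716.3 in those of pools 3 to 5, so that *Dlk1*, unlike *Afp*, was higher in pool 2. This was not particular to hepatoblasts, as *Dlk1* in the summed other cells was at 344.8 RPM in pool 2 and 100.3 in pools 3 to 5. Within the E10.5 Lgr5-GFP+ sort *Dlk1* was not called, with a log2 ratio of 1.85 in its lowest pool. *Gpc3*, *H19* and *Grb10* were at 1129, 1810 and 2416 RPM in hepatoblasts, with log2 ratios of 0.81, 1.23 and 1.32, and were not called. *Mest* was lower, at 9.17 RPM against 553. *Igf2* is listed at 0 in every cell of the table.

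Ligands for neighbouring cells went in both directions, with 4 higher and 5 lower of 15 tested. Within the E10.5 Lgr5-GFP+ sort, 2 were higher, *Fst* and *Thpo*, and 5 were lower. *Kitl* and *Epo* were not called there, with log2 ratios of 0.89 and 1.79 in their lowest pools. *Kitl*, the stem cell factor, was at 358 RPM in hepatoblasts and 44.4 in other cells, with 43 of 57 hepatoblasts above 10 reads. *Thpo*, which encodes thrombopoietin, and *Epo*, erythropoietin, were at 47.3 and 41.9 RPM against 1.17 and 2.47, but had more than 10 reads in only 12 and 13 of 57 hepatoblasts. *Fst*, which binds activin, was at 86.04 and 3.16 RPM. *Ptn*, *Bmp4*, *Igf1*, *Bmp2* and *Tgfb1* were lower, and *Mdk* was not called, at 2794 and 3775 RPM. Of 17 growth factor receptors, 0 were called.

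*Lgr5*, the receptor from whose locus the sort takes its GFP, was not called. Its reads ran from 0 to 1297 RPM per hepatoblast with a median of 1.65, and 23 of 57 hepatoblasts had more than 10 of them. These were 10 of 32 in pool 2, against 2 of 36 mesenchyme-like cells, and 13 of 24 in pools 3 to 5, against 32 of 160. In sum it was at 102.8 RPM in hepatoblasts and 17.8 in other cells. The log2 ratio of these sums was 2.53, and 1.10 within the pool where it was lowest. Most hepatoblasts but a minority of the other cells came from the Lgr5-GFP+ sort of E10.5, and within that sort the log2 ratio was 1.15, and -0.13 in the lowest pool. Mesenchyme-like cells were at 22.3 RPM in sum. No erythroid-like cell had more than 10 *Lgr5* reads, which allows up to 1.66%. Of 16 Wnt pathway genes tested, *Rnf43*, a ligase that removes Wnt receptors from the membrane, was the 1 called higher, at 98.99 RPM against 2.601. *Znrf3*, at 268.9 RPM against 134.4, and *Lgr4*, with a log2 ratio of 0.58, were not called.

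Cell division genes were read both in hepatoblasts and in other cells. Of 14 mitotic and 14 replication genes tested, 0 were called in either direction, where 1.41 and 7.3% of all genes were. The median log2 ratios were -0.59 and -0.23, on either side of the -0.44 over all genes. Both lay below the -0.10 over genes with at least 10 RPM in both sets of cells. Within the E10.5 Lgr5-GFP+ sort the medians were -0.61 and 0.10, against -0.40 over all genes. *Cdk1*, the only mitotic gene with a positive log2 ratio (0.21), was at 520 RPM in hepatoblasts and 450 in other cells. *Top2a* was at 479 and 564 RPM, and *Mki67* at 222 and 287. More than 10 *Mki67* reads were present in 36 of 57 hepatoblasts, of which 13 of 32 in pool 2 and 22 of 24 in pools 3 to 5.

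Of the genes higher in hepatoblasts, 62 were in the lists and the others outside them. Of those outside for which 50% or more of hepatoblasts had at least 3 reads, the 15 with the widest ratios were led by *Rhbg*, an ammonium transporter, with a log2 ratio of 9.27 at 57.2 RPM. *Lect2*, a secreted liver protein, was at 405 RPM against 2.39, *Gulo*, an enzyme of vitamin C synthesis, at 452 against 4.73, and *A1cf*, a cofactor of *Apob* RNA editing, at 238 against 2.16. *Reln*, a secreted glycoprotein, was the most abundant of the 15, at 1202 RPM against 32.4, with 53 of 57 hepatoblasts above 10 reads and a median of 1101 RPM per cell. Also among the 15 were *Paqr9*, *Spp2*, *Igsf1*, *Dnajc22*, *Qprt*, *Pla2g12b*, *Tcea3*, *Gstt1* and *Cpn1*, with log2 ratios between 5.37 and 6.82. *Cited1*, a transcriptional coregulator named here after its values were seen, was at 1687 RPM against 48.1, with more than 10 reads in all 57 hepatoblasts.

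Markers of the other cell types of the fetal liver were low in hepatoblasts. Of 13 mesenchyme markers 12 were lower, summing to 88.8 RPM in hepatoblasts (1.27 to 1777 per cell) and 3428 in other cells, and *Vim* was at 34.1 and 487 RPM. Of 8 endothelium markers 6 were lower, summing to 3.05 and 313 RPM, and *Tek*, *Cdh5*, *Lyve1* and *Stab2* had more than 10 reads in no hepatoblast. Of 7 leukocyte and megakaryocyte markers 5 were lower, at 43.5 and 920 RPM. Of 16 erythroid markers 3 were lower. They summed to 761 RPM in hepatoblasts and 4684 in other cells, and ran from 0 to 42135 RPM per hepatoblast, the highest being far above the 1521 RPM reached without the doubtful cells. By level in other cells, the genes lower in hepatoblasts were led by *Tmsb4x* (291 against 2896 RPM), *Ptn* (8.74 against 978), *Itm2a*, *Mfap2*, *Sparc*, *Ccn1*, *Col3a1*, *Pf4*, *Mest* and *Vim*.

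The rule genes were also read at a low level in other cells, and more so in pool 2. In other cells they summed to 440 RPM in pool 2 and to 30.3, 26.3, 10.1 and 12.96 RPM in pools 1, 3, 4 and 5. Without the 15 other cells that lay near the rule, these sums were 18.8 RPM in pool 2 and 4.75 to 7.85 RPM in the others, between 0.0262 and 0.117% of the level in hepatoblasts of the same pool. An *Apoa2* read was then present in 86.6% of other cells of pool 2 and in 12.98 to 47.3% of those of the other pools.

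Rank correlations were computed over the 53 hepatoblasts of the E10.5 Lgr5-GFP+ sort, of which 31 were of pool 2 and 21 of pools 3 to 5. Those between rule genes are over cells chosen by these genes. *Afp* and *Apoa1* had a rank correlation of 0.61 over all pools, 0.49 within pool 2 and 0.36 within pools 3 to 5. For *Afp* and *Alb* these values were 0.05, -0.02 and 0.28, for *Alb* and *Fgb* 0.09, -0.07 and 0.51, and for *Apoa2* and *Fgb* 0.42, 0.52 and 0.30. Summed plasma carriers and coagulation genes, which the rule did not use, had values of 0.44, 0.44 and 0.56. Summed plasma carriers and mitotic genes had a rank correlation of -0.00427. These points share pools, and values per cell share their total reads. *Afp* and the number of genes read in a cell at 100000 reads had a rank correlation of 0.73 over all pools, of 0.30 within pool 2 and of 0.11 within pools 3 to 5. The 10 genes that varied most for their level among these cells, among them *Nsdhl*, *Rpp14* and *Elp6*, each owed 46.1 to 72.2% of their sum to 1 cell, and 3 cells of pool 2 supplied all 10 of these values.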

How the data were processed

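The deposited table holds raw counts, which the authors made by aligning Smart-seq2 reads to GRCm38.p6 with STAR 2.6.0c and counting unique alignments per gene with Subread 1.6.2. Scanpy 1.3.3 is among the tools in the submitters' processing notes. Every cell column of the table entered the comparisons, and 0 remained outside. A deposited normalised table and the paper's clusters were not used. The table lists 54195 genes, of which 54042 were given a symbol and an exon length from GENCODE M21, and 0 mitochondrial genes. The authors had filtered cells beforehand.

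Groups came from the labels. Counts were summed over cells and scaled to 1000000 reads (RPM) in Python 3.11.15 with numpy 2.4.6, scipy 1.17.1 and pandas 2.3.3, and figures were drawn with matplotlib 3.10.9. Ratios used a floor of 3 reads in place of smaller sums, and a call needed a ratio of 4 over all cells and in each pool with at least 5 hepatoblasts, in genes for which 10 or more cells had 3 or more reads. The script was tested on simulated data. Intervals are Clopper-Pearson for shares and Poisson for summed counts. With 1 sample per group, no test was made.

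The rule for hepatoblasts, the gene lists and the tests were chosen with earlier results of these data known. Named genes are the rule genes and *Lgr5*, in each list up to 4 by level per kilobase, 3 by lowest pool ratio and 2 not called. Also named are 15 higher genes outside the lists, the 10 lower genes with the highest level in other cells, and the 10 most variable genes. Some of these lower genes are in the lists, among them *Ptn*, *Col3a1*, *Pf4*, *Mest* and *Vim*. Other genes of the lists are named to account for calls. *Gata4*, *Epcam*, *Cdh1*, *Sox9*, *Pkhd1*, *Top2a*, *Mki67* and *Cited1* were added after values were seen. Some genes that the rule names are not reported here. Alternatives changed the rule, the filter, the fold, the scaling, the depth and the cells compared.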

Additional observations from a re-analysis of the deposited data

How the results depend on the processing

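The number of hepatoblasts was 57 and lay between 49 and 61 under other read limits and other numbers of required genes. The share in the E10.5 Lgr5-GFP+ sort moved from 25.1 to 13.4% without pool 2. Calls are given here in percent of the 14929 genes tested. Beside 1.41% higher and 7.3% lower, a fold of 2 gave 2.68 and 11.4%, a fold of 8 gave 0.871 and 4.78%, and erythroid-like cells as the comparison gave 4.89 and 2.13%. By more than 1.5 times, the share of genes called lower alone moved to 12.1% without pool 2 (99.6% of those called with all pools among them), to 3.34% within the E10.5 Lgr5-GFP+ sort, to 0.1005% with differences of mean log2(RPM + 1) per cell (9 genes shared) and to 2.68% with each cell thinned to 100000 reads (33.6% shared). The genes called higher were 1.22% with differences of means, but these held only 40.3% of the genes called higher in the report, and those within the E10.5 Lgr5-GFP+ sort held 59.7%. Thinning leaves fewer reads for the floor of 3 counts. For the difference of means, the cause was not tested. The thinned setting, the one without the doubtful cells and the one without other cells near the rule were chosen after the data had been seen. All 88 named genes with a call kept their sign in the 10 settings run for single genes. A call already needed the full fold in each of pools 2 to 5, so leaving out a pool could hardly reverse a sign. A kept sign is also not a kept call. Of all genes called higher, only 40.3% kept the call with differences of means and 59.7% within the E10.5 Lgr5-GFP+ sort. No paired analysis was possible because the calls come from no test and the labels give no replicate numbers. Hepatoblasts were compared with other cells within each of pools 2 to 5. Depth limits what can be said of genes read in few cells and of the shares at E13.5, where the table holds fewer cells than at E10.5.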
